A study of Homo sapiens with 30 samples.

Results

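Cells of the bladder carcinoma line 5637 that overexpressed the ANKRD10-2 isoform were compared with cells of the same line that overexpressed the ANKRD10-1 isoform, across all genes and without the empty-plasmid group. All libraries of the overexpression experiment whose labels name either isoform were taken, which gave 6 of the 30 RNA-seq libraries of the study, 3 for each isoform. The study asked how the RNA-binding protein RBPMS restrains bladder cancer through the splicing of ANKRD10, and the other libraries came from RBPMS-knockout cells and their controls, from Vector cells that received the plasmid without an insert, and from cells with siRNA against either isoform. The study calls the longer product ANKRD10-1 and the shorter one ANKRD10-2, and both were carried by plasmids transfected with a lipid reagent. The labels give no time after transfection for these libraries. They name 5637 cells without further modification for both groups, whereas the text of the study describes the RNA-seq with the ANKRD10-1 plasmid in RBPMS-knockout 5637 cells and the ANKRD10-2 plasmid in 5637 cells with no knockout named. By that text the isoform and the RBPMS background change together, and their shares in every difference given here cannot be told apart. All libraries come from 1 cell line, and nothing in the labels says that the replicates were separate cultures, so the p-values measure the spread between these libraries, which may be technical.

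ANKRD10 is a protein with ankyrin repeats, modules that bind other proteins. The transcription factor MYC pairs with MAX on DNA and switches on genes for growth, ribosome assembly and glycolysis, and the study asked whether the isoforms of ANKRD10 act on it. Carcinoma cells of the urothelium also run inflammatory transcription through NF-kappaB, interferon signalling through STAT factors, hypoxia-type transcription through HIF and mechanical signalling through YAP and TEAD, and each of these drives a well-known set of genes.

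In the GENCODE annotation of GRCh38, ANKRD10 lies on the minus strand of chromosome 13. Its transcript ANKRD10-201 has 6 coding exons with 1260 coding bases for 420 amino acids, and ANKRD10-202 has 5 coding exons with 660 coding bases for 220 amino acids. The first 3 coding exons, 455 bases, are the same in both, so that the ends of the proteins differ. Coding exons that lie in only 1 of these transcripts are the fifth (96 bases) and sixth (473 bases) of ANKRD10-201 and the fourth of ANKRD10-202 (94 bases). Of these, the shorter ones are printed here, the fifth coding exon of ANKRD10-201 at chr13:110883698-110883793 and the fourth coding exon of ANKRD10-202 at chr13:110894109-110894202, both written here 5′ to 3′ on the minus strand. They are shown because a count per gene adds up reads of both and of any plasmid copy, and so cannot show which of the exons was read. The transcript that each plasmid carried is not given in the sources used here.
ANKRD10-201 coding exon 5: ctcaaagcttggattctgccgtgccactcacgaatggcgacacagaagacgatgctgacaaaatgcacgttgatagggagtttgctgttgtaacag
ANKRD10-202 coding exon 4: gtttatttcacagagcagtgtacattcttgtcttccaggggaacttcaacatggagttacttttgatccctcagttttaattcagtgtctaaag

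The libraries held 39765887 to 47493499 counts for ANKRD10-1 and 31736779 to 41852653 counts for ANKRD10-2. Levels are given as normalised counts, that is counts scaled to a common library size by TMM, and differences as log2 fold changes of ANKRD10-2 over ANKRD10-1 with their standard errors. The epithelial markers EPCAM, KRT8, KRT18 and KRT19 were at 8641 or more normalised counts in every library. Of markers of other cells, 5 of 14 leukocyte, 8 of 10 fibroblast and 4 of 8 endothelial ones passed the low-count filter. None of these was called. Summed fibroblast markers were at 3078 to 3176 normalised counts in ANKRD10-1 and 2855 to 3260 in ANKRD10-2. Summed leukocyte markers were at 790 to 833 normalised counts in ANKRD10-1 and 842 to 885 in ANKRD10-2, and the red cell gene HBB was at 0 throughout. Summed endothelial markers were at 174 to 185 in ANKRD10-1 and 126 to 158 in ANKRD10-2, which did not overlap, and their part in the results was not tested. In ANKRD10-2 replicate 3, 100 of 15596 genes with a mean of 50 or more were at least 1.5-fold above both partner libraries, against 22 to 42 genes in the other 5 libraries. At least 1.5-fold below both partners were 124 genes in ANKRD10-2 replicate 1, 84 in replicate 2 and 55 in replicate 3, against 28 to 57 in the ANKRD10-1 libraries. Vector replicate 3 had 164 raised genes, and 47 genes were raised both there and in ANKRD10-2 replicate 3. Results that rest on ANKRD10-2 replicate 3 are therefore also given without it.

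The targeted gene was examined first. ANKRD10 stood at 9753, 9636 and 9965 normalised counts in the ANKRD10-1 libraries, at 8396, 7553 and 8310 in the ANKRD10-2 libraries, and at 6170, 6082 and 6137 in the Vector libraries. All 6 overexpression libraries were thus above Vector, and the isoform groups did not overlap. ANKRD10 in total was lower with ANKRD10-2 than with ANKRD10-1 (log2 fold change -0.27, SE 0.05, adjusted p = 0.0035, edgeR's quasi-likelihood test with Benjamini-Hochberg adjustment, as for every adjusted p here). The excess over Vector was 0.67 for ANKRD10-1 and 0.40 for ANKRD10-2 on the log2 scale. A longer transcript gives more reads, and the annotated isoforms have 1260 and 660 coding bases. The counts therefore cannot show whether the plasmids gave equal amounts of ANKRD10 transcript. The differences below are not known to be matched for that amount. ANKRD10 was also lower in both RBPMS knockouts (-1.18 and -0.76). Vector is thus no matched baseline for ANKRD10-1 if its cells were knockout cells. RBPMS, whose splicing activity the study follows, stood at 201, 147 and 208 normalised counts with ANKRD10-1 and at 195, 212 and 258 with ANKRD10-2. These groups overlapped and the difference did not pass the test (log2 fold change 0.27, SE 0.15, adjusted p = 0.31).

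RBPMS was low in the whole experiment. Its CPM, the count scaled to the library size, was 3.58 to 5.06 in the ANKRD10-1 libraries, 4.75 to 6.27 in the ANKRD10-2 libraries and 4.74 to 5.40 in the Vector libraries, whereas the unedited cells of the knockout experiment had 38.9 to 44.5 and the knockout cells 14.2 to 21.4 in a table that was normalised separately. All libraries of this experiment, Vector included, thus lay below the knockout cells of the other table, and the level cannot show which cells were edited. The knockout cells carried chromosome-wide shifts, with a median log2 fold change of -0.37 over chromosome 19 for one sgRNA and of -0.37 over chromosome 9 for the other. Between ANKRD10-1 and Vector the medians of chromosomes 19 and 9 were 0.03 and 0.0033, and between ANKRD10-2 and ANKRD10-1 they were -0.02 and 0.01. The part of the RBPMS background in the isoform difference was not tested.

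The isoforms differed in the level of many genes, mostly by small amounts. Of 20052 genes tested, 1455 were called at an adjusted p under 0.05, which is 7.26% of them. ANKRD10-2 was higher in 833 (4.15%) and lower in 622 (3.1%). The median absolute log2 fold change of the called genes was 0.32, with 0.21 at the 10th and 0.74 at the 90th percentile, and 1134 of them were under 0.5. A difference of at least 1 on the log2 scale was reached by 72 called genes (0.359% of those tested), 39 higher and 33 lower. The groups did not overlap in 5194 genes, 25.9% of those tested, and 1439 of the called genes were among them. Without ANKRD10-2 replicate 3 there were 953 calls, 550 higher and 403 lower, and leaving out any one library gave 694 to 1396.

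**Figure D1:**
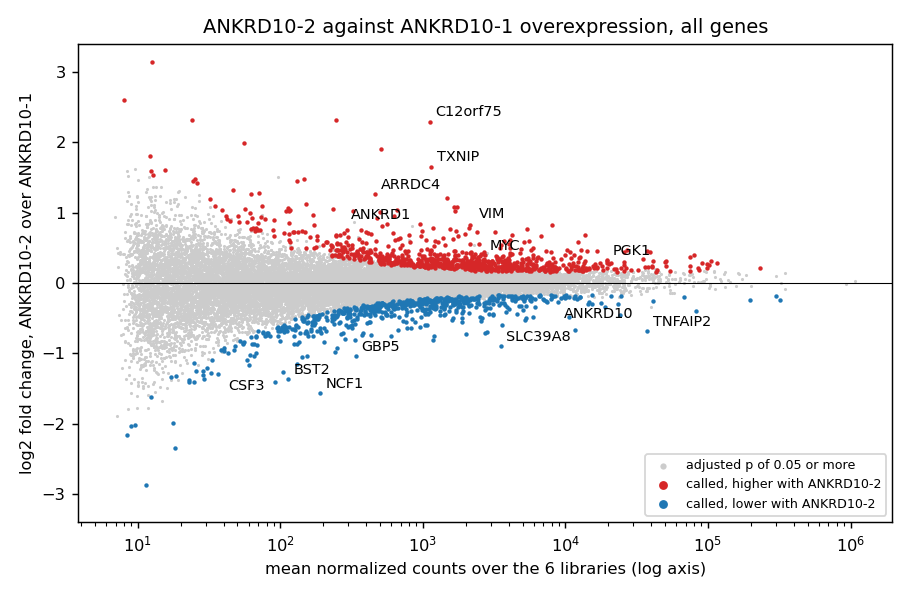
Log2 fold change of ANKRD10-2 over ANKRD10-1 (vertical axis) against mean normalised count on a log axis (horizontal axis) for the 20052 genes tested, with called genes in colour. The 1455 called genes lie on both sides of 0, and only 72 lie at or beyond a log2 fold change of 1 or -1.

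MYC itself was higher with ANKRD10-2. It stood at 2298, 2263 and 2478 normalised counts with ANKRD10-1, at 3304, 2964 and 2930 with ANKRD10-2, and at 2152, 2020 and 2127 with Vector. The lowest ANKRD10-2 library was above the highest ANKRD10-1 library, which gave a log2 fold change of 0.39 (SE 0.06) at an adjusted p of 0.00031. Its partner MAX did not pass the test (-0.04, adjusted p = 0.76). Of the 7 MYC targets that the study followed by qRT-PCR, 3 rose and none fell. PGK1, which makes ATP in glycolysis, stood at 17754, 17682 and 16943 with ANKRD10-1 and at 21615, 21628 and 21921 with ANKRD10-2 (log2 fold change 0.32, SE 0.05, adjusted p = 0.00024). HK2, the first enzyme of glycolysis, went from 5443, 5420 and 5307 to 6374, 6204 and 6585 (0.25, SE 0.05, adjusted p = 0.0033). C1QBP, a mitochondrial matrix protein, went from 2070, 2241 and 1975 to 2402, 2522 and 2613 (0.27, SE 0.06, adjusted p = 0.0082), a call that was lost without ANKRD10-1 replicate 1 (adjusted p = 0.056) and without ANKRD10-1 replicate 3 (adjusted p = 0.054). The other members of this panel did not pass the test. DDX21 had 0.11, RSL1D1 0.13, PRMT3 -0.06 and WDR43 -0.00056 on the log2 scale. Over Vector, ANKRD10-1 and ANKRD10-2 had -0.18 and 0.14 for PGK1, -0.14 and 0.11 for HK2 and 0.19 and 0.46 for C1QBP. The corresponding values were 0.21 and 0.32 for DDX21, 0.33 and 0.46 for RSL1D1, 0.24 and 0.18 for PRMT3 and 0.33 each for WDR43. HK2 and PRMT3 passed the test over Vector with neither isoform, and C1QBP with ANKRD10-2 only. These comparisons share the Vector libraries.

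**Figure D2:**
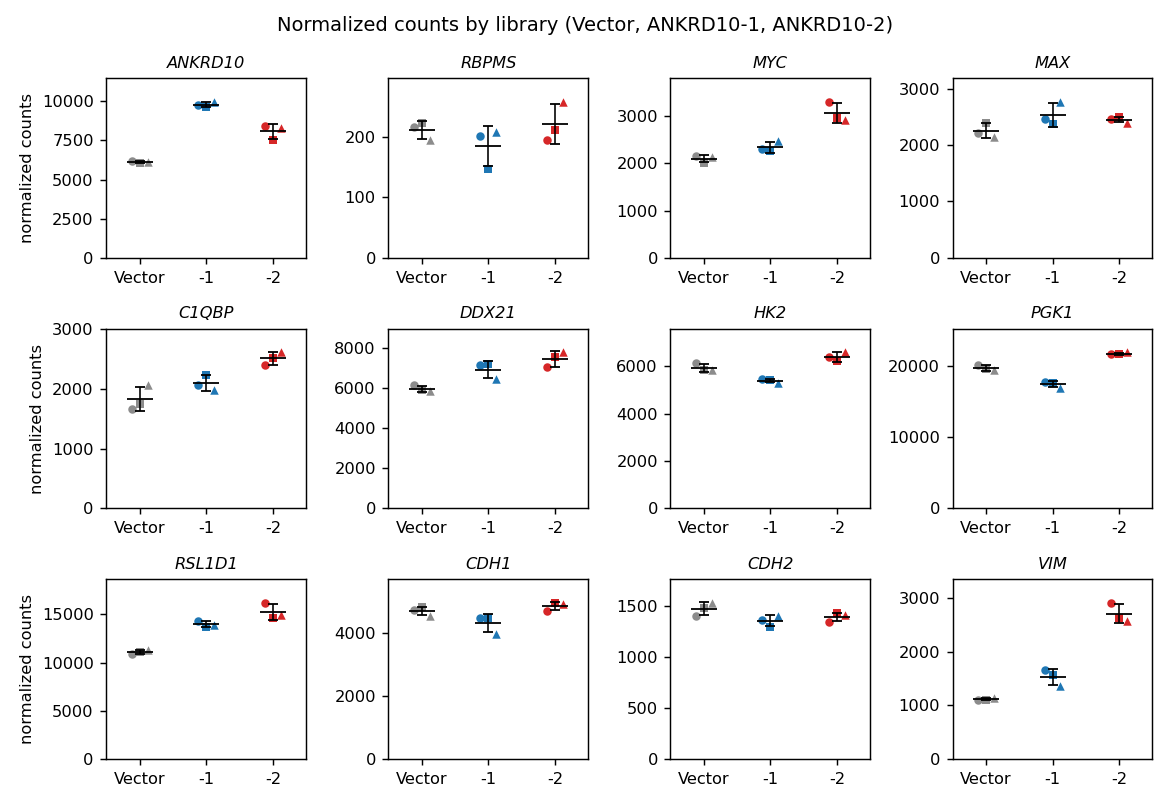
Normalised counts per library of the genes fixed for the study's question, apart from PRMT3 and WDR43, which are not drawn. Vector (grey), ANKRD10-1 (blue) and ANKRD10-2 (red) libraries are points, with a symbol for each replicate. Lines give the mean and SD of each group (n = 3). MYC, PGK1, HK2 and VIM separate the isoform groups, with MYC at 2930 to 3304 in ANKRD10-2 and 2263 to 2478 in ANKRD10-1.

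Of 200 MYC targets V1, a list written by hand, 21 rose (10.5%) and 3 fell (1.5%), with a median log2 fold change of 0.07 where the median of all genes was -0.0046, and 159 of the 200 had a fold change above 0, as did 49.1% of all genes tested. Leaving out 1 library at a time gave 11 to 18 rises, with 11 without ANKRD10-1 replicate 1 and 13 without either of the other ANKRD10-1 libraries. ODC1, which starts polyamine synthesis, stood at 1188, 1027 and 1030 with ANKRD10-1 and at 1725, 1739 and 1555 with ANKRD10-2, a log2 fold change of 0.63. RAD23B, a DNA repair and proteasome shuttle protein, rose by 0.48, and SRSF3, a splicing factor, fell by 0.45 on the log2 scale. Of 58 MYC targets V2, 2 rose and 1 fell with a median of -0.0034, and 27 were above 0. Of 43 genes of nucleolar ribosome assembly none rose and 2 fell (median -0.01), and of 78 cytosolic ribosomal protein genes 5 rose and none fell (median 0.10), a count that went to 0 without ANKRD10-1 replicate 2 or replicate 3, to 1 without ANKRD10-2 replicate 1 and to 3 without ANKRD10-2 replicate 2. Against Vector, the V1 median was 0.17 for ANKRD10-2 and 0.10 for ANKRD10-1, and the nucleolar median was 0.20 for each, in comparisons that share the Vector libraries.

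Glycolysis and hypoxia genes rose together. Of 24 HIF targets 14 rose (58.3%) and none fell, with a median log2 fold change of 0.23, and 11 to 14 rose when any one library was left out. ANGPTL4, a secreted inhibitor of lipoprotein lipase, stood at 226, 225 and 250.05 normalised counts with ANKRD10-1 and at 372, 367 and 359 with ANKRD10-2 (0.66, SE 0.10, adjusted p = 0.00035). EGLN3, a prolyl hydroxylase that marks HIF for decay, went from 1916, 1857 and 1752 to 2610, 2460 and 2378, a log2 fold change of 0.44. PDK1, a kinase that inhibits pyruvate dehydrogenase, had 0.43 and ANKRD37 had 0.42. Of 22 glycolysis genes 9 rose (40.9%) and none fell, with a median of 0.20, and 6 to 12 rose with 1 library left out. LDHA, which turns pyruvate to lactate, rose from between 30590 and 32177 normalised counts to between 37757 and 40578, a log2 fold change of 0.34. GPI had 0.32 and ENO2 0.31. These lists share 1 member, the glucose transporter gene SLC2A1. Set beside Vector, the HIF median was -0.13 for ANKRD10-1 and 0.10 for ANKRD10-2, and the glycolysis median -0.06 and 0.12. Genes of the respiratory chain encoded in the nucleus did not pass the test in any of 74 cases, with a median of 0.03, and of 13 genes of mitochondrial DNA 4 fell (MT-CYB, MT-CO3, MT-CO2 and MT-ATP6, by 0.19 to 0.26 on the log2 scale), with 1 fall without ANKRD10-1 replicate 1 or replicate 2 and 2 falls without ANKRD10-2 replicate 2 or replicate 3. Cholesterol synthesis had 0 calls among 24 genes, and of 12 genes of fatty acid synthesis SREBF1, their transcriptional regulator, fell by 0.63 on the log2 scale.

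TXNIP and ARRDC4 were among the largest rises. Both are arrestin-domain proteins that restrain glucose uptake, and both are known targets of the glucose-sensing factors MLXIP and MLXIPL, which bind E-boxes as MYC does. MLXIPL itself had 254, 257 and 312 normalised counts with ANKRD10-1 and 208, 129 and 220 with ANKRD10-2 (-0.54, adjusted p = 0.039), a call lost without any one of the ANKRD10-1 libraries or ANKRD10-2 replicate 2. TXNIP stood at 567, 552 and 545 normalised counts with ANKRD10-1 and at 1685, 1709 and 1813 with ANKRD10-2, a fold of 3.15 (log2 fold change 1.65, SE 0.07, adjusted p = 3.2e-12). With Vector it stood in between, at 1036, 957 and 917. ARRDC4 went from 262, 311 and 248 to 633, 654 and 674 (1.26, SE 0.10, adjusted p = 6.5e-08), and Vector was again in between with 430.0, 420 and 423. In neither gene did the 3 groups overlap. The 250 bases before each annotated start were searched for the letters CACGTG, an E-box that reads the same on both strands. ARRDC4 has 1 match, which begins 210 bases before the start, and TXNIP has no exact match in this window. E-boxes with other letters were not searched for, so the search cannot show whether TXNIP has such a site. Over all 27305 RefSeq promoters of this length on GRCh38.p14, 6.49% hold the E-box, and it was in 8.76% of promoters of genes tested, 8.32% of those called higher and 6.54% of those called lower. The ARRDC4 window is chr15:97960453-97960702 on the plus strand, with the match in capitals.
ARRDC4: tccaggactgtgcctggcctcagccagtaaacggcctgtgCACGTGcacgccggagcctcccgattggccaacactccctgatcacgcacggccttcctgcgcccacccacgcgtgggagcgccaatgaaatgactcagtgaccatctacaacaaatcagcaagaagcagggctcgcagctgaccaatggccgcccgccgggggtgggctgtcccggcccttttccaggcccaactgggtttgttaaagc

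Several of the other large rises were uneven among the libraries. C12orf75 had the largest rise that the naming rule admitted, from 321, 502 and 323 normalised counts to 1559, 1471 and 2563 (log2 fold change 2.30, SE 0.17, adjusted p = 6.5e-08). Its Vector libraries stood at 217, 253 and 1848, so that the third Vector library lay among the ANKRD10-2 values. H1-10, a linker histone, went from 1048, 1218 and 1119 to 2319, 2075 and 2708 (1.08, SE 0.08, adjusted p = 6.5e-08) with Vector at 983, 991 and 2268. CCDC117 went from 954, 1257 and 997 to 1852, 2285 and 2644 (1.09) with Vector at 1041, 1052 and 2185. In these 3 genes the first and second Vector libraries were near the ANKRD10-1 values and the third was near those of ANKRD10-2. ST14, a membrane serine protease of epithelia, showed the same unevenness within ANKRD10-2, with 1123, 1118 and 1118 in ANKRD10-1 and 1189, 1164 and 4398 in ANKRD10-2, so its log2 fold change of 1.03 (adjusted p = 0.047) was 0.08 (adjusted p = 0.62) without ANKRD10-2 replicate 3. Of the 12 largest rises, 5 were raised in ANKRD10-2 replicate 3 and 8 in Vector replicate 3, and of the 12 largest falls none was raised in either. Of all 1455 calls, 26 were genes raised in both of these replicate 3 libraries. They were 26 of 47 such genes and were called higher, where 4.15% of all genes tested were called higher. Of 164 genes raised in Vector replicate 3, 64 were called higher with ANKRD10-2. The cause was not tested. C12orf75 kept a log2 fold change of 1.99 without ANKRD10-2 replicate 3. The remaining large rises were SFTA1P (1.26), LTK (1.06), GTF2IRD2B (1.05), RASSF3 (1.05), BSPRY (1.03) and FA2H (1.02). Without ANKRD10-2 replicate 3, BSPRY had 0.68, RASSF3 0.51 and GTF2IRD2B 0.67. All 3 lost their calls in the fit with all 9 libraries, and RASSF3 and GTF2IRD2B also with DESeq2 (adjusted p = 0.12 and 0.071). GTF2IRD2B has a near-identical copy with which it may share reads, and H1-10 shares 22.9% of its exonic bases with a gene on the opposite strand, which itself had 1.21, where the strand setting of the counting is not stated.

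**Figure D3:**
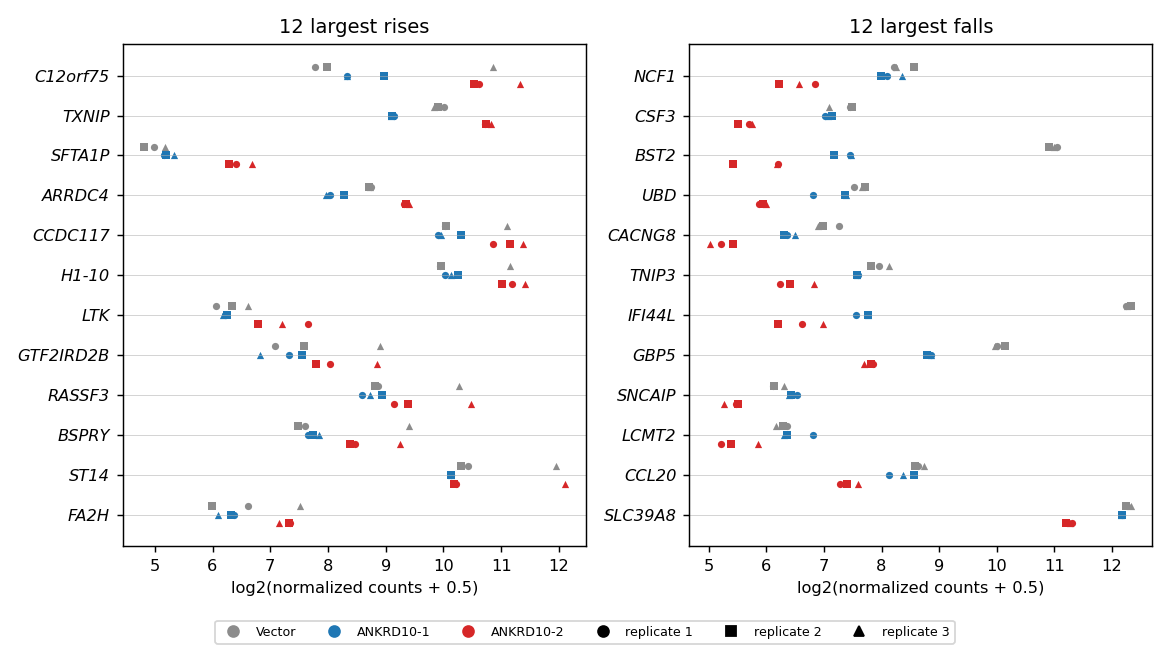
Log2 of normalised counts plus 0.5 (horizontal axis) in each library for the 12 largest rises and 12 largest falls, with a colour for each group and a symbol for each replicate. TXNIP and ARRDC4 keep the 3 groups apart, while for C12orf75, H1-10 and ST14 the third Vector library lies among or near the highest ANKRD10-2 values.

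YAP and TEAD targets and mesenchymal genes were higher with ANKRD10-2 than with ANKRD10-1. Of 27 YAP and TEAD targets 8 rose (29.6%) and 1 fell, with a median of 0.11, and 7 to 9 rose when 1 library was left out. Over Vector their median was 0.02 for ANKRD10-1 and 0.17 for ANKRD10-2. ANKRD1, a sarcomere and nuclear ankyrin protein that is a standard YAP target, stood at 674, 727 and 646 normalised counts with ANKRD10-1 and at 1222, 1184 and 1235 with ANKRD10-2, with Vector at 576, 534 and 601 (log2 fold change 0.84, SE 0.07, adjusted p = 1.7e-07). CCN1, a secreted matrix protein, went from 1334, 1254 and 1236 to 2265, 2035 and 2059 (0.74, SE 0.06). The receptor kinase AXL rose from between 3146 and 3278 to between 4673 and 5106 (0.62) and TGFB2, a TGF-beta ligand, from between 1389 and 1465 to between 1859 and 2010.1 (0.45). The closest relative of CCN1, CCN2, which is as well known a target and was looked up after the values were seen, had 491, 467 and 504 against 493, 491 and 499.8 (0.03, adjusted p = 0.88), so not every member of this list moved. The TEAD motif GGAATG, searched on both strands, occurs in 11.9% of all promoters of this length, in 9.54% of those of genes tested, in 8.83% of those called higher and in 12.1% of those called lower. The ANKRD1 window, chr10:90921088-90921337 on the minus strand, has matches that begin 220 and 128 bases before the start, and the AXL window has none.
ANKRD1: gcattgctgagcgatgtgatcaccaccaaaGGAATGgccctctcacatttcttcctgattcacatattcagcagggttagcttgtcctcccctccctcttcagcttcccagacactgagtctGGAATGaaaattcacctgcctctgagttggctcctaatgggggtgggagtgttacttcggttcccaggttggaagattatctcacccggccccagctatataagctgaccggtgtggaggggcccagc

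Of 48 mesenchymal genes 11 rose (22.9%) and 2 fell, with a median of 0.13 and 8 to 11 rises when 1 library was left out. Over Vector their median was -0.03 for ANKRD10-1 and 0.0094 for ANKRD10-2, so the list as a whole lay near Vector. VIM, the intermediate filament vimentin, stood at 1670, 1563 and 1371 with ANKRD10-1, at 2918, 2635 and 2582 with ANKRD10-2 and at 1096, 1107 and 1142 with Vector (log2 fold change 0.83, SE 0.07, adjusted p = 2.3e-07). The 3 groups did not overlap, and 34.3% of the exonic bases of VIM lie under the antisense gene VIM-AS1. THBS1, a matrix glycoprotein, rose from between 4983 and 5486 to between 8175 and 8520 (0.67), SNAI2, a repressor of epithelial genes, had 0.49 and FN1, fibronectin, 0.31. The members that fell were TNC (-0.17) and MMP1 (-0.25), but none fell without ANKRD10-1 replicate 1, ANKRD10-1 replicate 2 or ANKRD10-2 replicate 2, and 1 without each of the other libraries. The cadherins that mark the switch did not pass the test. CDH1, epithelial cadherin, stood at 4468, 4462 and 3961 against 4698, 4946 and 4896 (0.18, adjusted p = 0.054) and CDH2, neural cadherin, had 0.05 (adjusted p = 0.72). Of 34 genes of epithelial junctions and their regulators 4 rose and none fell. They were the junction genes DSC2 and DSG2, the splicing regulator ESRP1 and the transcription factor OVOL1. Only 1 rose without ANKRD10-2 replicate 3 or without any one of the ANKRD10-1 libraries, and 2 without ANKRD10-2 replicate 2. Of 18 keratins 5 rose and 1 fell, with KRT5 at 0.20 and KRT7 at 0.24, and 2 rose without ANKRD10-1 replicate 1 and 3 without ANKRD10-1 replicate 2. Of 21 integrin and laminin genes 5 rose and 2 fell, with 2 and 3 rises without the same libraries. IFFO2, an intermediate filament family protein outside these lists, was among the clearest abundant rises, from 2516, 2331 and 2391 to 3784, 4044 and 4092 (0.73, SE 0.05, adjusted p = 6.5e-08).

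Among stress and growth-factor genes the counts were mixed. Of 25 heat shock genes 8 rose (32%) and none fell, with a median of 0.15, but only 4 rose without ANKRD10-1 replicate 1 or replicate 2. DNAJB4 had 0.35, HSPH1 0.31, DNAJB1 0.27 and HSPA1A 0.22 on the log2 scale, and HSPA1A cannot be separated from its copy HSPA1B with certainty. The median of the list over Vector was 0.36 for ANKRD10-1 and 0.49 for ANKRD10-2. HSPH1 lay further above Vector than these medians, with 32649 to 39390 in ANKRD10-1, 44206 to 47215 in ANKRD10-2 and 14664 to 16782 in Vector. Of 28 genes of the ATF4 amino acid response 9 rose and 1 fell although their median was -0.03, but 4 rose without ANKRD10-1 replicate 2 or replicate 3 and 5 without ANKRD10-1 replicate 1, and none fell with any one library left out. CEBPB, a transcription factor of this response, had 0.73, with Vector at 799, 984 and 2944, and SLC7A5, an amino acid transporter, had 0.55, which was 0.28 without ANKRD10-2 replicate 3 and lost its call without ANKRD10-1 replicate 1 (adjusted p = 0.053), with DESeq2 and with all 9 libraries. Of 27 immediate early genes 7 rose and none fell, among them FOSL1, an AP-1 subunit, from between 4699 and 4836 to between 6385 and 6798 normalised counts (0.47). KLF2 of the same list lost its call without ANKRD10-2 replicate 3 (adjusted p = 0.18). Of 15 EGFR ligands and receptors 3 rose and 1 fell, with the ligand AREG at 9545 to 10260.1 against 12816 to 13152 (0.40). EGFR itself had 6968, 7150 and 7153 against 6110.0, 6278 and 6197 (-0.19, adjusted p = 0.023), a call lost without any one of the ANKRD10-1 libraries or ANKRD10-2 replicate 3.

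Chemokines and other NF-kappaB targets were lower with ANKRD10-2. Of 44 NF-kappaB targets 19 fell (43.2%) and none rose, with a median log2 fold change of -0.17, and 13 to 19 fell when 1 library was left out. CSF3, the granulocyte growth factor G-CSF, stood at 130, 141 and 133 normalised counts with ANKRD10-1, at 51.5, 45.2 and 53.2 with ANKRD10-2 and at 176, 179 and 135 with Vector (log2 fold change -1.41, SE 0.18, adjusted p = 3.7e-05). CCL20, a chemokine for dendritic and Th17 cells, went from 279, 376 and 330 to 156, 168 and 193 (-0.92, SE 0.13, adjusted p = 0.00012), with Vector at 399, 384 and 428. In both genes every ANKRD10-2 library was below every ANKRD10-1 and Vector library. TNFAIP2, an abundant TNF-induced gene, went from 44117, 46053 and 48527 to 28345, 27730 and 29803 (-0.68). CXCL3, a neutrophil chemokine, had -0.68. Of the other CXCL members of this list, looked up after their values were seen, CXCL8 had -0.60, CXCL1 -0.59, CXCL2 -0.55 and CXCL5 -0.19, while CXCL6 had -0.37 and did not pass the test (adjusted p = 0.63). CXCL8 went from 4525, 4147 and 4290 to 2896, 2849 and 2786 normalised counts. Of 25 chemokines and cytokines, a list that overlaps with the NF-kappaB targets, 10 fell (40%) and 1 rose, and 8 to 10 fell with 1 library left out. The one that rose was IL11, a cytokine of the IL-6 family, at 199.5, 198 and 242 against 309, 283 and 284 (0.47), a call lost without ANKRD10-1 replicate 1, ANKRD10-1 replicate 2 or ANKRD10-2 replicate 1, and TNFSF10, the death ligand TRAIL, fell by 0.64 on the log2 scale. Set beside Vector, the median of the NF-kappaB targets was -0.09 for ANKRD10-1 and -0.31 for ANKRD10-2.

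**Figure D4:**
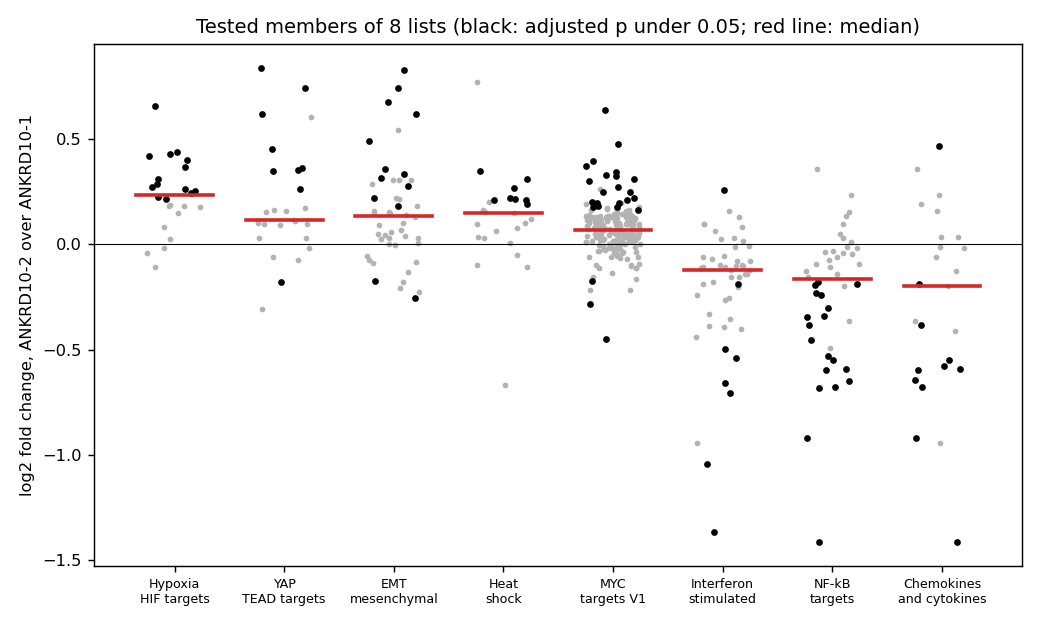
Log2 fold change of ANKRD10-2 over ANKRD10-1 (vertical axis) for each tested member of 8 lists, with called members in black, others in grey and the median as a red line. No NF-kappaB target is called higher and no HIF target is called lower, and the medians run from 0.23 for HIF targets to -0.20 for chemokines and cytokines.

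The NF-kappaB motif, read as GGG, any 2 bases and TTTCC and searched on both strands, occurs in 1.73% of all promoters of this length and in 1.97% of those of genes tested. It was in 4.67% of 428 promoters of genes called lower and in 0.679% of 589 promoters of genes called higher. The CCL20 window, chr2:227813592-227813841 on the plus strand, holds 1 match in the reverse orientation, which begins 79 bases before the start and is given in capitals, and the TNFAIP2 window holds none.
CCL20: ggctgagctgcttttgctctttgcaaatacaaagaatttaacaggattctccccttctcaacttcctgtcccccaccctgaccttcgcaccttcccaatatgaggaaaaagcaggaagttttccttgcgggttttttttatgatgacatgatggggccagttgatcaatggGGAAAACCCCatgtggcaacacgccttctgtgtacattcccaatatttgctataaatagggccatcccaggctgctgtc

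Interferon-stimulated genes were also lower with ANKRD10-2, in smaller number. Of 50 tested 7 fell (14%) and 1 rose, with a median of -0.12, and 5 to 8 fell with 1 library left out. BST2, the membrane protein tetherin that holds back budding viruses, stood at 175, 144 and 176 normalised counts with ANKRD10-1 and at 73.0, 42.6 and 72.3 with ANKRD10-2 (-1.37, SE 0.19, adjusted p = 0.0001). IFI44L went from 189, 217 and 217 to 97.7, 73.2 and 125 (-1.04, SE 0.17, adjusted p = 0.00042). Both isoforms were far below Vector, where BST2 stood at 2119, 1918 and 2048 and IFI44L at 4850, 5167 and 4913. The difference between the isoforms in these genes was therefore small next to their distance from Vector, and the medians of the list against Vector were -1.49 for ANKRD10-2 and -1.36 for ANKRD10-1. GBP5 and GBP2 are guanylate-binding proteins, which interferon-gamma induces. GBP5 went from 464, 441 and 463 to 231, 226 and 207 with Vector at 1021, 1126 and 1004 (-1.04, SE 0.10, adjusted p = 1.1e-06), and GBP2 from between 13898 and 14538 to between 8379 and 9444 (-0.66) with Vector at 13494 to 15470. GBP1 (-0.14) and GBP3 (-0.01), looked up after their values were seen, did not pass the test. TRIM22 had -0.70, and this call was lost without ANKRD10-1 replicate 2. None of 19 genes of MHC class I presentation was called, with a median of 0.02.

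The core of the interferon response element, read as GAAA, any 2 bases and GAAA, occurs on either strand in 3.07% of all promoters of this length, in 2.44% of those of genes tested, in 6.07% of those called lower and in 2.21% of those called higher. The BST2 window, chr19:17405631-17405880 on the minus strand, holds overlapping matches that begin 130 and 124 bases before the start. The IFI44L window holds matches that begin 164 and 73 bases before the start.
BST2: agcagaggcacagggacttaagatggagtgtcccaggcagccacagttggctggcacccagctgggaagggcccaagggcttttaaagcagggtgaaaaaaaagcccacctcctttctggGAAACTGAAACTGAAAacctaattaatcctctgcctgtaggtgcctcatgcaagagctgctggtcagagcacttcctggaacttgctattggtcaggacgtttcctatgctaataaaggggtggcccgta

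Large falls outside the chemokines were NCF1, a subunit of the phagocyte oxidase, UBD, a ubiquitin-like protein induced by interferon-gamma and TNF, and SLC39A8, a zinc importer. NCF1 went from 272, 254 and 326 normalised counts to 115, 74.5 and 94.3 (log2 fold change -1.56, SE 0.15, adjusted p = 1.7e-06), with Vector at 297, 376 and 302, and it has near-identical pseudogenes with which reads may be shared. UBD went from 112, 164 and 166 to 58.0, 61.2 and 63.2 (-1.26), and 76.9% of its exonic bases are overlapped by a gene on the opposite strand and 66.4% by GABBR1 on the same strand. SLC39A8, a known NF-kappaB target, went from 4609, 4622 and 4542 to 2529, 2347 and 2462 (-0.90, SE 0.05, adjusted p = 2.3e-09) with Vector at 4883, 4839 and 5150. TNIP3, an inhibitor of NF-kappaB signalling, went from 192, 191 and 191 to 75.1, 85.1 and 113 (-1.05). In each of these genes the ANKRD10-1 libraries lay closer to Vector than the ANKRD10-2 libraries did. The remaining large falls were CACNG8 (-1.17), SNCAIP (-1.03) and LCMT2, which had 112, 81.8 and 78.9 against 36.5, 41.2 and 57.2 and lost its call without ANKRD10-1 replicate 1.

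Lists of cell division are given beside the shares of all genes tested, 4.15% higher and 3.1% lower. Of 48 DNA replication genes 4 rose (8.33%) and none fell (median 0.03), with 1 or 2 rises when any one library was left out. Of 48 mitosis genes 1 rose (2.08%) and 2 fell (4.17%), with a median of -0.01. Of 24 p53 targets 1 rose (4.17%) and 2 fell (8.33%), with a median of -0.03. Of 34 splicing regulators 4 rose and 2 fell, but 0 or 1 rose without any one library other than ANKRD10-2 replicate 1. Of 46 transcription coactivators 1 rose and 2 fell, among them CRTC1 at -0.41, NCOA6 at -0.28 and MED15 at 0.24. Proteasome subunits had 5 rises and no fall among 31 genes with a median of 0.09, but 2 rises without any one of the ANKRD10-1 libraries, and NRF2 targets 4 rises and 1 fall among 24. Matrix proteases and their inhibitors had 6 rises and 3 falls among 25, with the collagenase MMP13 at -0.79 and SERPINB2, an inhibitor of plasminogen activation, at 0.53. TGF-beta and BMP genes had 3 rises and 2 falls among 28. In the other hand-written lists at most 2 genes were called in either direction. Over all hand-written lists together, 193 of 1176 distinct tested members were called, where 7.26% of all genes tested were called. The lists were written with earlier results of these data known.

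Genes that both RBPMS sgRNAs changed in the same direction by at least 1 on the log2 scale in the knockout experiment, taken from its own libraries, were followed here. Of 72 tested genes that rose in both knockouts, 11 were higher with ANKRD10-2 (15.3%) and 5 were lower (6.94%), with a median of 0.06. The shares over all genes tested were 4.15% and 3.1%, so these genes were above them in both directions. Of 180 tested genes that fell in both knockouts, 2 were higher (1.11%) and 18 were lower (10.0%), with a median of -0.08, and the 18 went to 10 to 14 when 1 library was left out, with 10 without ANKRD10-1 replicate 1 or replicate 3 and 11 without ANKRD10-2 replicate 3. VIM, FOSL1, LOXL2 and NT5E, which encodes the ectoenzyme CD73, were among those that rose in both settings, and UBD, MMP13 and IDO1, which breaks down tryptophan, were among those that fell in both. IDO1 was scarce, with 33.5, 21.6 and 30.7 normalised counts against 5.37, 5.32 and 10.0. CSF3 and the stress cytokine GDF15 (-0.71) rose in the knockouts and were lower with ANKRD10-2. Apart from the genes of the rule, these were chosen after their values were seen.

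The knockdown experiment compared siANKRD10-2 against siANKRD10-1 in libraries that are not shared. By the text of the study siANKRD10-1 was given to 5637 cells and siANKRD10-2 to RBPMS-knockout 5637 cells, while the labels name 5637 cells only. The RBPMS background would then turn with the isoform between the experiments, and the parts of background and isoform in the signs cannot be told apart. Among 18181 genes tested in both, 56.0% had log2 fold changes of opposite sign, and Pearson's r across genes, which are not independent replicates, was -0.12. Between the knockdowns, 6968 of 18832 genes tested were called. Of 1429 genes called between the overexpressed isoforms and tested there, 901 had the opposite sign in the knockdown, and of 755 called in both, 526 had. MYC was one of them, with 0.39 between the overexpressed isoforms and -0.68 between the knockdowns. The HIF targets had a median of 0.23 here and of -0.52 there, and glycolysis 0.20 and -0.26. The NF-kappaB targets did not turn, with -0.17 here and -0.09 there, nor did the chemokines with -0.20 and -0.23, and mesenchymal genes had 0.13 and 0.02.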

How the data were processed

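The authors sequenced stranded mRNA libraries, and per the labels trimmed reads with Trimmomatic 0.36 and counted them with featureCounts of Subread 1.5.1 on GRCh38, and the study also names HISAT2, StringTie and DESeq2. The strand setting of the counting is not stated. The deposited tables hold raw read counts per gene, 56303 genes for the overexpression libraries, and every column was assigned to a sample. From these counts, 3 ANKRD10-2 and 3 ANKRD10-1 libraries were compared with edgeR 4.0.16 (R 4.3.3), without Vector in the fit. Genes were kept by filterByExpr (minimum count 10, minimum total 15), normalised by TMM and tested by the quasi-likelihood test, with Benjamini-Hochberg adjustment over all 20052 genes and a prior count of 0.125. SE is the log2 fold change divided by the square root of F. Normalised counts are scaled over the 9 libraries of the table, Vector included. Groups of 3 are too small for exact permutation tests, whose smallest possible p is 0.1.

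The comparison and the gene lists were chosen with earlier results of these data known. Lists were written by hand or, for the RBPMS-knockout genes, taken from the knockout table with both sgRNAs called in the same direction and changed by 1 or more on the log2 scale with each. Named were 14 fixed genes, the 12 largest rises and 12 largest falls (adjusted p under 0.05, mean of at least 50 normalised counts, no overlap, current symbol), the 6 smallest p with a mean of at least 1000, and up to 4 called members per list. The fit was tested on simulated data. Replicate numbers did not pair the libraries (deviations of same-numbered libraries correlated at -0.02, -0.0046 and -0.0048), and chi-square per gene between replicates was 4.82 to 10.7, so none was a copy. Alternatives were RLE normalisation, no filter, at least 50 counts in 3 libraries, DESeq2 1.42.0, all 9 libraries, a replicate block and each library left out. A GC offset, alone and with the block, was added after seeing the data. GC content was known for 80.9% of genes tested. Promoters and their coordinates come from RefSeq, exons from GENCODE v29. Not analysed here were splicing and protein sequences.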

Additional observations from a re-analysis of the deposited data

How the results depend on the processing

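The number of genes called, 1455, was 1462 with RLE normalisation, 1669 without a filter, 1518 with at least 50 counts in 3 libraries, 1355 with DESeq2 and 1399 with all 9 libraries. With the replicate block it was 1414, of which 1336 were among the 1455. By the labels, the libraries of a block share only a number. With a GC offset it was 1584, and 1474 with the offset and the block. Requiring a log2 fold change of at least 1 left 72, 39 higher and 33 lower. Leaving out 1 library at a time gave 694 to 1396 calls, 423 to 814 higher and 271 to 582 lower; the lowest came without ANKRD10-1 replicate 1, and without ANKRD10-1 replicate 2 there were 759, without ANKRD10-1 replicate 3 854 and without ANKRD10-2 replicate 3 953. Called list members went from 193 to between 114 and 177. The MYC targets V1 median (0.07) ranged from 0.047 to 0.082 and that of genes that fell in both knockouts (-0.08) from -0.106 to -0.058. ANKRD10 stayed between -0.30 and -0.22 and was called in every alternative, and RBPMS, between 0.13 and 0.36, in none. MAX, uncalled, had 0.028 without ANKRD10-1 replicate 3 (-0.089 to 0.028 over the libraries left out), and WDR43, uncalled at -0.00056, had 8.58e-05 with RLE, 3.82e-05 with DESeq2 and -0.048 to 0.073 over the libraries left out. Of 130 named genes called, 82 were called with each library left out and 77 in every alternative. The cause of these changes was not tested. The shallowest library held 31736779 counts, and genes too low for the filter were not tested.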
